A study of Bos taurus with 6 samples.

Results

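The genes described here are NOXO1 (ENSBTAG00000020369), GSTT1 (ENSBTAG00000040298) and SOD2 (ENSBTAG00000006523), 3 of the 24579 genes counted in the mammary gland, which stand for the formation and the removal of superoxide and its products. They were taken by identifier from the genes that the study itself named as upregulated in these same heifers, so their difference between the treatment groups is a description and no independent evidence. All 3 had enough counts to be tested, as had 14724 genes in all.

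RNA was sequenced from mammary biopsies of 6 Holstein heifers on day 21 of their first lactation. The dams of the 3 in utero heat stressed heifers (IUHT-H 9196, 9203 and 9204) had shade only during the last 6 to 7 weeks of gestation. The dams of the 3 in utero cooled heifers (IUCL-H 9202, 9214 and 9223) also had fans and soakers. All 6 were born in 2014, were managed alike from birth, and were in their first lactation in 2016. Each library is 1 animal, and the biopsy is whole tissue, so a change in the number of cells of a type and a change in RNA per cell cannot be told apart.

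Superoxide is formed when an electron is passed to oxygen, by NADPH oxidases at membranes and as a by-product of respiration in mitochondria. NOXO1 encodes the organizer subunit that brings the parts of NADPH oxidase 1 together at the membrane. SOD2 encodes the manganese superoxide dismutase of the mitochondrial matrix, which turns superoxide into hydrogen peroxide. GSTT1 encodes a theta class glutathione S-transferase, which joins glutathione to reactive compounds and can reduce some organic peroxides. In the lactating gland a few milk protein transcripts usually make up most of the messenger RNA, so the other transcripts are read against a large and variable background.

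A few genes also took up most of the counts in these libraries, though whether they encode milk proteins could not be checked by name. The 10 genes with the most counts, listed by identifier without names, took 65.8%, 64.7% and 74.7% of the counts in IUHT-H 9196, 9203 and 9204, and 67.6%, 72.5% and 72.1% in IUCL-H 9202, 9214 and 9223. IUHT-H therefore held both the lowest shares and the highest one, and the groups overlapped. The mean share was 68.4% ± 5.48 in IUHT-H and 70.7% ± 2.73 in IUCL-H (SD, n = 3 per group; exact permutation test, two-sided, p = 0.6, with 0.1 as the smallest p that 3 against 3 can give). The difference of -2.30 percentage points came to -0.45 without IUHT-H 9203, -1.002 without IUHT-H 9196 and -1.42 without IUCL-H 9214, and to -3.87 without IUCL-H 9202 and -5.45 without IUHT-H 9204. IUHT-H libraries held 75754791 to 84969285 counts and IUCL-H libraries 91696849 to 101361294, so the 95% Wilson interval of each share reached at most 0.0107 percentage points to either side. The counts outside the 10 genes came to 21495306 to 28294621 and 27068826 to 29741526. At these depths 3 counts correspond to 0.0298 to 0.0435 CPM, the unit of normalized level used here (counts relative to library size after scaling by the TMM method of edgeR).

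NOXO1, on the side of superoxide formation, was scarce. It had 59, 67 and 39 counts in IUHT-H 9196, 9203 and 9204, against 34, 22 and 23 counts in IUCL-H 9202, 9214 and 9223. Every IUHT-H library held fewer counts in total, but outside the 10 most counted genes IUHT-H 9203 held more than IUCL-H 9214 and 9223. After normalization the NOXO1 values were 0.655, 0.714 and 0.565 CPM in IUHT-H and 0.338, 0.244 and 0.262 CPM in IUCL-H. The groups did not overlap, and the lowest IUHT-H value was 1.67 times the highest IUCL-H value. Every IUHT-H value above every IUCL-H value was found for NOXO1 and GSTT1, against 3.14% of all genes tested.

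Counting error alone was of the size of the spread of NOXO1 inside a group. Its coefficient of variation was 11.6% in IUHT-H and 17.8% in IUCL-H, where counts of this size vary by 13.5% and 19.5% from sampling alone. The 95% counting interval was 0.402 to 0.773 CPM in IUHT-H 9204, the lowest of its group, and 0.553 to 0.906 CPM in IUHT-H 9203, the highest. The heifers of a group could therefore not be ordered by NOXO1 at this depth. The interval of IUHT-H 9204 also overlapped that of IUCL-H 9202, which ended at 0.472 CPM.

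SOD2, on the side of removal, was measured with far more counts, and its spread was between animals. It had 2664, 3123 and 1334 counts in IUHT-H 9196, 9203 and 9204, and 2238, 1288 and 974 counts in IUCL-H 9202, 9214 and 9223. These were 29.6, 33.3 and 19.3 CPM in IUHT-H against 22.2, 14.3 and 11.1 CPM in IUCL-H. IUHT-H 9204 lay below IUCL-H 9202, so the groups overlapped. Counting error was 2.05% and 2.58%, while the heifers of a group varied by 26.3% in IUHT-H and 36.2% in IUCL-H. The highest IUCL-H had 2.0 times the SOD2 of the lowest, and the highest IUHT-H 1.72 times that of the lowest.

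GSTT1, the glutathione transferase, lay between them in depth. It had 665, 564 and 263 counts in IUHT-H 9196, 9203 and 9204, and 284, 339 and 208 counts in IUCL-H 9202, 9214 and 9223. The normalized values were 7.38, 6.01 and 3.81 CPM in IUHT-H and 2.82, 3.75 and 2.37 CPM in IUCL-H. IUHT-H 9196 and 9203 were well above all IUCL-H, but IUHT-H 9204 was 1.02 times IUCL-H 9214. The counting intervals of these last animals were 3.37 to 4.30 and 3.37 to 4.18 CPM, so the absence of overlap in GSTT1 was not resolved by the counts. All counting intervals given here cover sampling of reads and not the variation between animals.

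**Figure D1:**
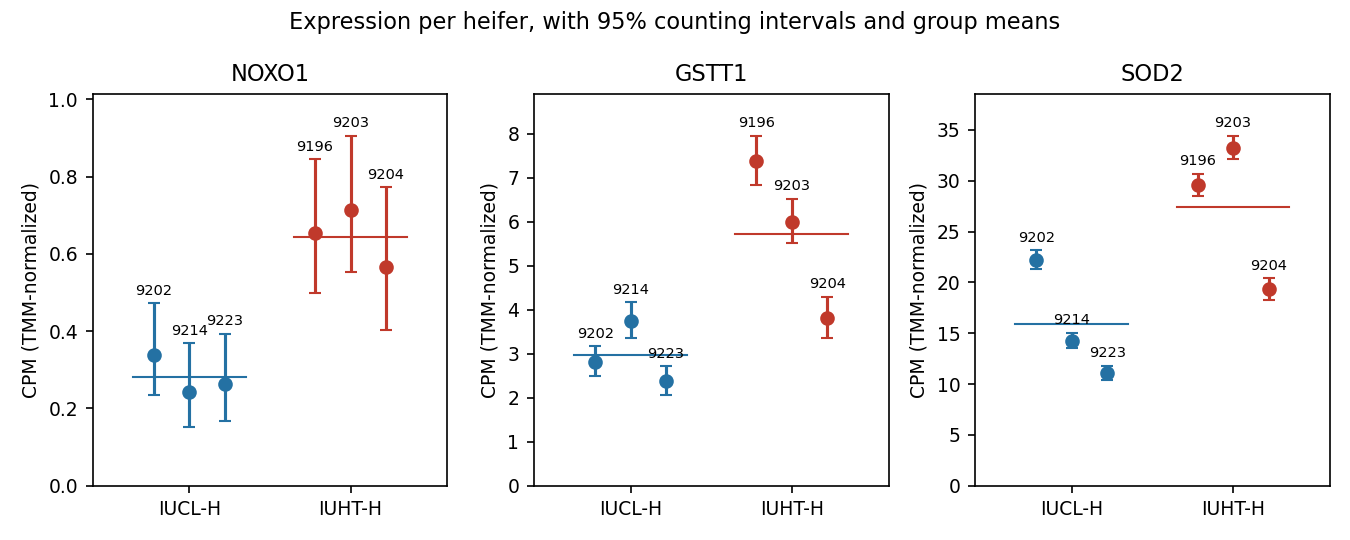
CPM (TMM-normalized) of NOXO1, GSTT1 and SOD2 in each heifer (points, labelled by heifer), with 95% counting intervals (bars) and group means (horizontal lines). IUHT-H 9196 and 9203 are above every IUCL-H in all 3 panels, while IUHT-H 9204 is close to IUCL-H 9214 in GSTT1 and below IUCL-H 9202 in SOD2.

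The size of the difference between IUHT-H and IUCL-H fell from NOXO1 to SOD2. The means were 0.645 ± 0.0747 and 0.281 ± 0.050 CPM for NOXO1, 5.73 ± 1.80 and 2.98 ± 0.706 CPM for GSTT1, and 27.4 ± 7.21 and 15.9 ± 5.74 CPM for SOD2 (SD, n = 3 per group). In edgeR's quasi-likelihood test over all genes, these were 2.29-fold, 1.92-fold and 1.73-fold higher values in IUHT-H. The log2 fold changes were 1.19 (standard error 0.30), 0.94 (standard error 0.27) and 0.79 (standard error 0.28), and their standard errors were larger than the steps between them. NOXO1 and GSTT1 were past the study's P-value cut-off of 0.01 and SOD2 was not, against 0.285% of all genes tested that were past it with higher values in IUHT-H. The call of SOD2 turned with the test. Its P-value was 0.0243 in the quasi-likelihood test, and 0.00956 in edgeR's exact test, 0.00935 in its likelihood ratio test and 0.00605 in DESeq2, all past the cut-off. The adjusted p in the quasi-likelihood test was 0.999 for each of the 3 genes (Benjamini-Hochberg over the genes tested, edgeR).

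These calls rested on few animals. NOXO1 lost the cut-off without IUCL-H 9214 (log2 fold change 1.10), IUCL-H 9223 (1.14), IUHT-H 9196 (1.18) or IUHT-H 9203 (1.11). GSTT1 lost it without IUCL-H 9202 (0.90), IUCL-H 9223 (0.80), IUHT-H 9196 (0.72) or IUHT-H 9203 (0.91), and SOD2 passed it without IUCL-H 9202 (1.11) or IUHT-H 9204 (0.98).

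The RNA of the genes was compared by the ratio of the counts of a pair of genes in the same heifer. This ratio does not depend on how libraries are scaled. NOXO1 and SOD2 act at different sites in the cell, so the balance of superoxide formation and removal itself was not tested. SOD2 had 45.2, 46.6 and 34.2 counts for each NOXO1 count in IUHT-H 9196, 9203 and 9204, and 65.8, 58.5 and 42.3 in IUCL-H 9202, 9214 and 9223. The groups overlapped, with IUCL-H 9223 below 2 of the 3 IUHT-H. The mean log2 ratio was 5.37 ± 0.25 in IUHT-H and 5.74 ± 0.33 in IUCL-H (SD, n = 3 per group; exact permutation test, two-sided, p = 0.3). For GSTT1 to NOXO1 the mean log2 ratio was 3.1 ± 0.37 in IUHT-H and 3.37 ± 0.48 in IUCL-H (SD, n = 3 per group; exact permutation test, two-sided, p = 0.6). The ratio of the 2 removing genes, SOD2 to GSTT1, was 2.27 ± 0.24 in IUHT-H and 2.37 ± 0.54 in IUCL-H on the log2 scale (SD, n = 3 per group; exact permutation test, two-sided, p = 0.9). Each ratio had the lower mean in IUHT-H, by 0.38, 0.27 and 0.10 on the log2 scale, and the values of the groups overlapped in all 3. The difference in SOD2 to NOXO1 was larger than the SD of either group, and those of the other ratios were not. NOXO1 counts vary by 13.5% in IUHT-H and 19.5% in IUCL-H from sampling alone. Both ratios to NOXO1 carry this error, so part of their spread and of their order among heifers can be counting error. With 3 against 3 the test cannot go below 0.1, so these p-values do not show that the ratios were the same. The mean difference in SOD2 to NOXO1 ran from -0.24 without IUHT-H 9204 or IUCL-H 9202 to -0.56 without IUCL-H 9223, where the exact permutation test reached its smallest p of 0.1. The mean difference in SOD2 to GSTT1 turned to 0.20 without IUCL-H 9202 and to 0.03 without IUHT-H 9196. That of GSTT1 to NOXO1 came to -0.0014 without IUCL-H 9214 and -0.096 without IUHT-H 9204, and to -0.44 without IUCL-H 9202 and -0.47 without IUHT-H 9196.

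**Figure D2:**
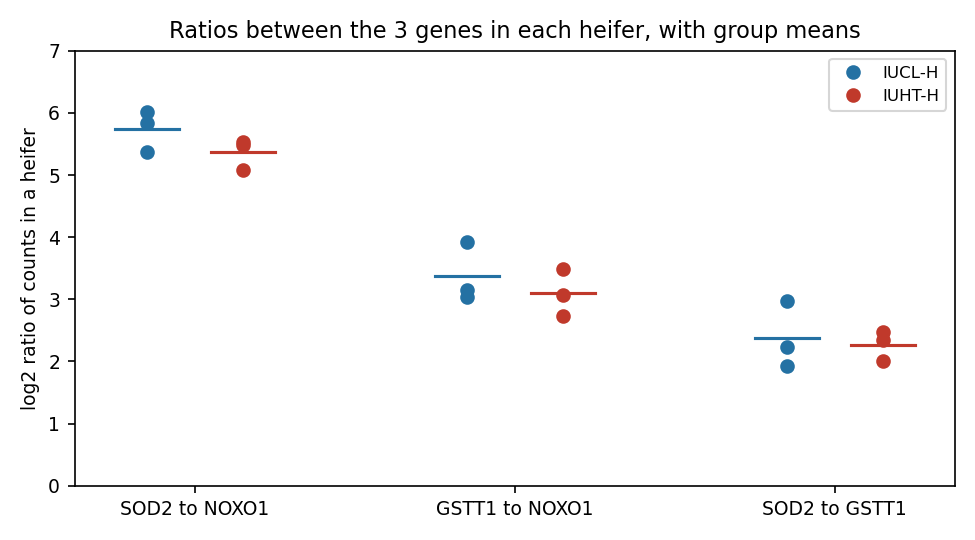
log2 ratio of the raw counts of each pair of genes in each heifer (points) with group means (lines), for IUCL-H (blue) and IUHT-H (red). The points of the groups overlap in all 3 ratios, and the widest spread is that of SOD2 to GSTT1 in IUCL-H, from 1.92 to 2.98.

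Inside the groups, 3 heifers are too few for a correlation, so only their order is given. NOXO1 is left out of this order, since its counting intervals overlapped between all heifers of a group. In IUHT-H, 9204 was the lowest heifer for SOD2 and GSTT1 and had the largest share of counts in the 10 most counted genes. IUHT-H 9203 had the smallest share and the most SOD2, while GSTT1 was highest in 9196. In IUCL-H, 9202 had the smallest share and was likewise highest for SOD2. GSTT1 did not follow this order, since it was highest in IUCL-H 9214, the heifer with the largest share of its group. SOD2 and GSTT1 were thus both lowest in IUHT-H 9204. In IUCL-H both had their lowest value in 9223, but the most SOD2 and the most GSTT1 were in different heifers. The GSTT1 counting intervals of IUCL-H 9223 (2.06 to 2.72 CPM) and 9202 (2.50 to 3.17 CPM) overlapped. Which of them was lowest in GSTT1 was therefore not resolved by the counts.

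The 3 genes also had slopes on that share, with standard errors larger than the steps between the genes. A difference between the slopes was not tested. With the share as the only term in edgeR's quasi-likelihood fit, the log2 change for each 10 percentage points of share was -1.10 for SOD2 (standard error 0.32, adjusted p = 0.14), -0.96 for GSTT1 (standard error 0.43, adjusted p = 0.262) and -0.78 for NOXO1 (standard error 0.56, adjusted p = 0.468). SOD2 was past the cut-off of 0.01 and the others were not, against 4.06% of all genes tested that were past it with lower values at a higher share. SOD2 was thus 1 of 598 genes with such a slope. The slopes changed most when IUHT-H 9204 was left out. Without this heifer the slope was steeper, with -1.82 for SOD2, -1.41 for GSTT1 and -1.96 for NOXO1. The IUHT-H heifers left, 9196 and 9203, both had smaller shares than every IUCL-H. Share and treatment could therefore not be told apart in that fit. NOXO1 then had the steepest slope of the 3 and was past the cut-off. The slope of NOXO1 was -0.46 without IUHT-H 9203, and that of GSTT1 was -0.60 without IUHT-H 9196. SOD2 was no longer past it without IUCL-H 9202 (-1.13), IUCL-H 9214 (-1.02), IUHT-H 9196 (-1.03) or IUHT-H 9203 (-0.95).

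As a description over the 6 heifers, maternal treatment alone took up 92.5% of the variance of log2 CPM in NOXO1, 64.3% in GSTT1 and 53.6% in SOD2. The median over all genes tested was 10.8%. The 3 genes were chosen as upregulated in these heifers, so a treatment part above that median follows from the choice. A small spread inside the groups also makes the treatment part larger. In NOXO1 this spread (11.6% in IUHT-H and 17.8% in IUCL-H) was below the size of counting error (13.5% and 19.5%). The share alone took up 27.2%, 36.4% and 62.9% in the same order, where the median gene had 28.3%. NOXO1 and GSTT1 thus varied with the share about as much as the usual gene, and SOD2 more. For 19.6% of all genes the part of the variance following the share was as large as in SOD2. SOD2 was the only gene of the 3 in which the share took up more of the variance than the treatment, though the difference between these parts was not tested. Together the terms took up 98.0% in NOXO1, 78.3% in GSTT1 and 89.1% in SOD2, against 48.3% in the median gene.

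**Figure D3:**
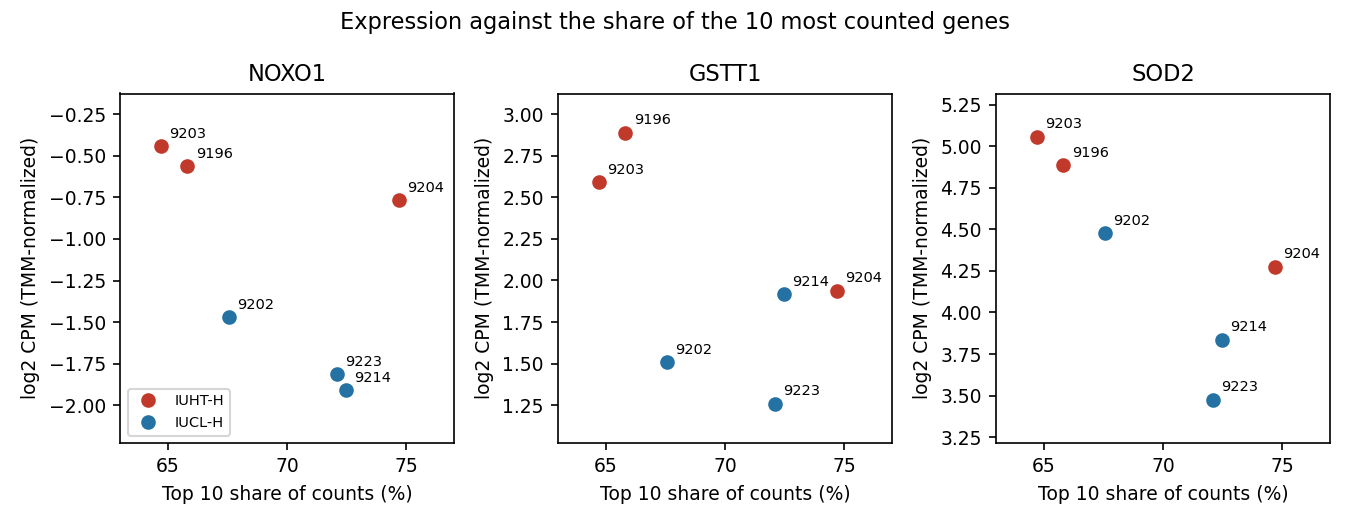
log2 CPM (TMM-normalized) of each gene against the percent of counts in the 10 most counted genes, 1 point per heifer, with each vertical axis spanning the same number of log2 units. In NOXO1 every IUHT-H point lies above every IUCL-H point, whereas in SOD2 the values fall from IUHT-H 9203 to IUCL-H 9202 along the share and IUHT-H 9204 lies above the IUCL-H nearest to it.

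With treatment and share in the same fit, the treatment difference of SOD2 was 0.58 (standard error 0.17) on the log2 scale, compared with 0.79 (standard error 0.28) without the share. Its P-value was 0.011 in edgeR's quasi-likelihood test, and the slope of SOD2 on the share in this fit was -0.93 (standard error 0.23), past the cut-off. For NOXO1 the treatment difference was 1.10 (standard error 0.29) and stayed past the cut-off, with a slope on the share of -0.41 (standard error 0.39). For GSTT1 it was 0.76 (standard error 0.26) and was no longer past it, with a slope of -0.60 (standard error 0.36). Among all genes tested in this fit, 0.278% had higher values in IUHT-H past the cut-off and 2.76% had lower values at a higher share. The adjusted p for treatment was 0.9998 for each of the 3 genes, and that for the slope of SOD2 on the share was 0.187 (edgeR's quasi-likelihood test). With 6 heifers and 2 terms, 3 residual degrees of freedom among heifers remained.

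**Figure D4:**
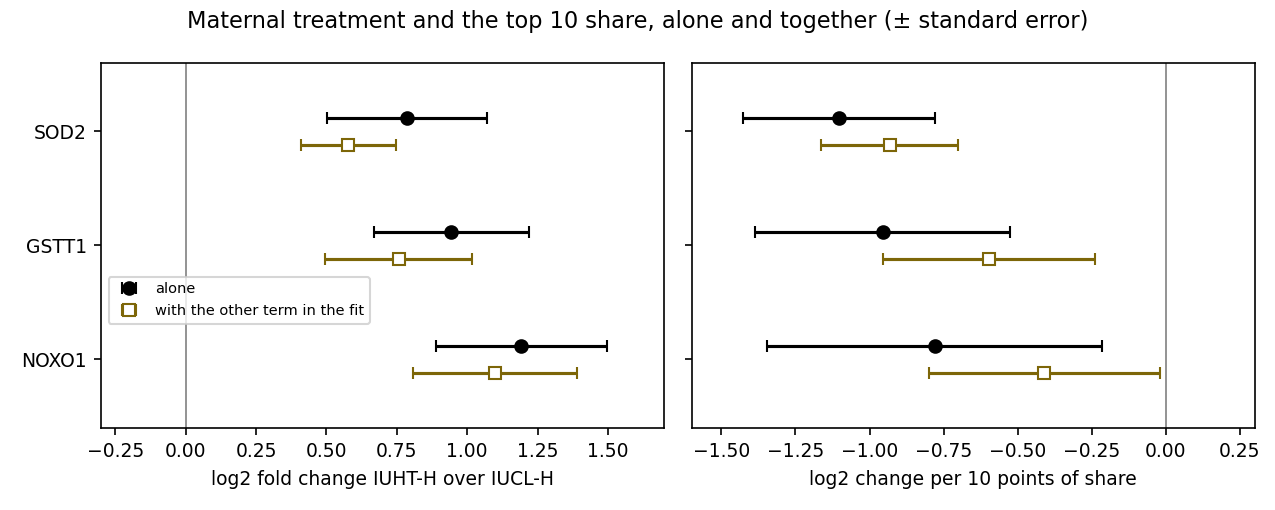
log2 fold change of IUHT-H over IUCL-H (left) and log2 change for 10 percentage points of the share (right) for each gene, fitted alone (black) and with the other term in the same fit (open squares), with standard errors. The treatment difference of NOXO1 moves from 1.19 to 1.10 and that of SOD2 from 0.79 to 0.58 when the share is added.

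The shares fell apart into a low set (IUHT-H 9203, IUHT-H 9196 and IUCL-H 9202) and a high set (IUCL-H 9223, IUCL-H 9214 and IUHT-H 9204), 4.52 percentage points from each other, so no correlation coefficient over the 6 heifers is given. The slopes and the parts of the variance above rest on the same sets. In the exact permutation test over pairings of the heifers (two-sided), the relation with the share had p = 0.0806 for SOD2 (adjusted p = 0.364), 0.225 for NOXO1 and 0.233 for GSTT1. SOD2 was also set beside the heifers with the nearest shares, a view chosen after the data were seen. In both sets each IUHT-H was above each IUCL-H in SOD2. For NOXO1 and GSTT1 any such split gives this order, because their groups did not overlap.

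In SOD2, the 29.6 and 33.3 CPM of IUHT-H 9196 and 9203 stood beside 22.2 CPM in IUCL-H 9202, and the 19.3 CPM of IUHT-H 9204 beside 14.3 and 11.1 CPM in IUCL-H 9214 and 9223. The overlap of the SOD2 groups was thus between heifers of the low and the high set. This order within both sets held in 8.6% of all genes tested.

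Of the other genes of these pathways, few could be found by name. Lists of 102 genes were drawn up for NADPH oxidases and other sources, superoxide dismutases, peroxide removal, glutathione synthesis, glutathione S-transferases, the NRF2 pathway and NF-kB targets. The counts carry Ensembl identifiers only, and 4 of the 102 could be matched through the study's own supplementary gene tables, which list genes chosen in these animals. These were NOXO1, GSTT1, SOD2 and NFKBIA, and NOXO1, GSTT1 and NFKBIA were past the cut-off with higher values in IUHT-H, as were 0.285% of all genes tested. Because the 4 were matched through such tables, their calls do not describe the pathways, whose other genes were not examined. This count of 3 fell to 1 without IUCL-H 9214 and to 0 without IUCL-H 9223, IUHT-H 9196 or IUHT-H 9203, or with scaling by library size only, and rose to 4 without IUHT-H 9204. None of 46 markers of leukocytes, secretory epithelium, myoepithelium, fibroblasts, adipocytes and endothelium could be matched, so the cell makeup of the biopsies was not tested.

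NFKBIA (ENSBTAG00000016683) encodes the inhibitor that holds NF-kB in the cytoplasm and is itself induced by NF-kB, as SOD2 is. It had 37.5, 37.5 and 29.3 CPM in IUHT-H 9196, 9203 and 9204, and 26.7, 15 and 18.1 CPM in IUCL-H 9202, 9214 and 9223. The groups did not overlap, and as in SOD2 the heifer with the smallest share in IUCL-H, 9202, was the highest of its group. NFKBIA was higher in IUHT-H than in IUCL-H by 0.80 on the log2 scale (standard error 0.22, adjusted p = 0.999, edgeR's quasi-likelihood test). Its slope on the share was -0.78 (standard error 0.36), beside -1.10 (standard error 0.32) for SOD2 and -0.78 (standard error 0.56) for NOXO1. Differences between these slopes were not tested.

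The genes with the most similar pattern were sought among 212 genes with a name and a mean of at least 1 CPM, by Pearson's r of log2 CPM over the 6 heifers. Many of the 212 were named because they differed between these groups, so the values of r describe likeness only. Nearest to NOXO1 were INPP5E, a phosphatase of phosphoinositides (r = 0.98), LOC537017 (0.95) and NFKBIA (0.95). In IUHT-H and IUCL-H, INPP5E reached means of 3.12 ± 0.42 and 1.77 ± 0.11 CPM (SD, n = 3 per group), so that it shared with NOXO1 a small spread inside each group. Nearest to GSTT1 were HP, which encodes the acute phase protein haptoglobin (r = 0.94), INPP5E (0.90) and LOC616942 (0.87). The means of HP were 2.67 ± 2.77 and 0.525 ± 0.203 CPM (SD, n = 3 per group), in the same order. Nearest to SOD2 were ZG16B (r = 0.99), the complement inhibitor gene SERPING1 (0.96) and the Wnt antagonist gene SFRP1 (0.95). SERPING1 averaged 130.7 ± 34.5 and 61.4 ± 21.9 CPM in IUHT-H and IUCL-H (SD, n = 3 each). Apart from INPP5E, the genes nearest to the 3 members were different ones. Over all 14724 genes with or without a name, these were often not the nearest. An r as high, the named gene itself included, was found with NOXO1 in 3 genes for INPP5E, 19 for LOC537017 and 20 for NFKBIA. With GSTT1 it was found in 20 genes for HP, 55 for INPP5E and 93 for LOC616942. With SOD2 it was found in 6 genes for ZG16B, 44 for SERPING1 and 67 for SFRP1.

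On the RefSeq gene list of assembly ARS-UCD2.0, which is not the build of the counts, GSTT1 lay next to GSTT2, another theta class transferase, NOXO1 between TBL3 and GFER, and SOD2 next to WTAP. Reads that match both theta class genes could have been given to either or dropped, so the counts of GSTT1 carry that uncertainty. None of the 3 genes overlapped its neighbours on that assembly.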

How the data were processed

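Per the submitters' processing notes, the authors checked reads with FastQC, mapped them with TopHat2 (version 2.0.13) and used HTSeq. The notes give UMD3.1 as the genome build and the paper's methods give bosTau7. The authors deposited raw read counts per Ensembl gene, 1 library per heifer, neither normalized nor filtered. Counting options were not given in the sources used here, and strand use is not stated. A further IUCL-H of the paper was not analysed here.

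Genes were filtered with filterByExpr and scaled by TMM in edgeR (version 4.0.16, R 4.3.3). Treatments were compared by its quasi-likelihood test on all 6 heifers without covariates, with the study's P-value cut-off of 0.01 and Benjamini-Hochberg adjustment over all genes tested. A standard error is the log2 change divided by the square root of F. The share of counts in the 10 genes with the most counts over all heifers was fitted alone and together with treatment, per 10 percentage points. log2 CPM has a prior count of 2, and ratios of counts one of 0.5. Counting intervals are exact Poisson intervals (95%, SciPy 1.17.1). No 2 heifers of a group had counts that agreed within sampling noise (chi-square per degree of freedom of at least 51.7). The steps were checked on simulated counts.

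The members and lists were chosen with earlier results of these data known. The rule for named genes took the members, every matched list gene past the cut-off, and the 3 most similar named genes. The 3 genes with the most counts, which the rule also covers, are left unnamed because the files do not pair their identifiers with names. Names came from the study's supplementary gene tables. The RefSeq table holds no Ensembl identifiers and gave neighbours only. No sequence was printed, since no sequence table was used here. The alternatives were the exact and likelihood ratio tests, a robust fit, DESeq2 (version 1.42.0), RLE or library size scaling, other filters, removal of the 10 genes, the share as covariate, and leaving out each heifer.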

Additional observations from a re-analysis of the deposited data

How the results depend on the processing

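The differences of the 3 genes between IUHT-H and IUCL-H and their slopes on the share kept their direction in every alternative run, while their side of the 0.01 cut-off changed. Scaling by library size only moved the median log2 fold change of all genes to 0.13 and the median slope to -0.57. It gave log2 fold changes of 1.33 for NOXO1 and 1.14 for GSTT1, neither past the cut-off (1.19 and 1.004 relative to the median gene), and 0 of the 4 matched pathway genes past it. It also gave a slope of -1.53 for GSTT1, past the cut-off (-0.95 relative to the median gene). With the share as covariate, GSTT1 had 0.76 and lost the cut-off. SOD2, not past it in the quasi-likelihood test, was past it with the exact test (0.79), the likelihood ratio test (0.79) and DESeq2 (0.79). With the 10 genes taken in each heifer separately, the slope of SOD2 was -1.11 and just missed the cut-off. For the shifts between tests the cause was not tested. Leaving out each heifer gave log2 fold changes of 1.10 to 1.35 for NOXO1, 0.72 to 1.16 for GSTT1 and 0.58 to 1.11 for SOD2, and 0 to 4 matched pathway genes past the cut-off. The slopes ranged from -1.96 to -0.46 for NOXO1, from -1.41 to -0.60 for GSTT1 and from -1.82 to -0.92 for SOD2. They were largest in size when IUHT-H 9204 was left out, where share and treatment could not be told apart. The mean difference in SOD2 to GSTT1 ranged from -0.33 to 0.20 on the log2 scale and turned positive without IUCL-H 9202 (0.20) or IUHT-H 9196 (0.03). NOXO1, below 1 CPM in every heifer, has no value under the filter of 1 CPM in at least 3 heifers. Depth limits NOXO1 most, with 22 to 67 counts per heifer. No paired analysis was possible because the heifers of the groups share no number.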
